A study of Mus musculus with 49 samples.

Results

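The mouse stefin A genes lie side by side on chromosome 16 and encode small cystatins of the stefin type, which stay inside the cell because they carry no signal peptide. The members described here were the rows of the deposited expression table whose Ensembl identifiers carry the symbols Stfa1, Stfa2, Stfa3, Stfa2l1, BC100530 and Gm5483. Of 7 listed symbols 6 matched a row, out of 38253 genes in the table, and the listed symbol BC117090 was not analysed here. They were chosen by their FPKM levels in these same samples, high in the leukaemias and low in the normal cells, so the difference between leukaemia and normal cells is given as a description, without a test.

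Stefins bind tightly and reversibly in the active site of papain-type cysteine proteases, chiefly the lysosomal cathepsins B, H, L and S, and block them. The contact is made by the N terminus and by hairpin loops, the first of which carries a motif conserved among cystatins. Humans have a lone stefin A gene, whereas the mouse family has expanded into a cluster, and its transcripts are known from neutrophils and their marrow precursors.

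Expression was measured by RNA sequencing in 30 samples of normal marrow cells and 19 samples of leukaemia. All mice were C57BL/6J and labelled WT and 6 to 12 weeks old, and all samples were labelled as bone marrow. In the study leukaemic recipients were sampled once disease had developed after transplantation, which took longer for some origins than for others. The label therefore does not give their age at sampling. The normal populations were long-term and short-term haematopoietic stem cells (LT-HSC and ST-HSC, 5 samples each), multipotent progenitors (MPP, 6), common myeloid progenitors (CMP, 5), granulocyte macrophage progenitors (GMP, 5) and megakaryocyte-erythrocyte progenitors (MEP, 4). By the methods of the study these were sorted from lineage-depleted marrow on c-Kit, Sca-1, CD150, CD34 and the Fcγ receptor. The leukaemias arose after ST-HSC, MPP, CMP or GMP had been transduced with a retrovirus carrying the fusion oncogene MLL-AF9 (MA9) and GFP and had been transplanted into irradiated recipients. They are named STHSC:MA9 (3 samples), MPP:MA9 (6), CMP:MA9 (4) and GMP:MA9 (6), and by the same methods the GFP+ cells were taken from the spleen, whatever their stage of maturation, with each sample from its own mouse. Leukaemias were therefore not sorted by the gates that define the normal cells. Organ, irradiation, transplantation and probably age at sampling differ between leukaemia and normal samples along with the oncogene, so their parts cannot be told apart.

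Values are FPKM, which scale a gene's sequenced fragments to its length and to the size of the library. A sample had 15282 to 17852 genes with a value above 0, and the number of reads behind each sample was not part of the table. Of the genes behind the gates, Kit, the receptor for stem cell factor, lay between 43.2 and 152 FPKM in the normal samples, and Fcgr3, an Fcγ receptor, between 130 and 190 in GMP. RNA of Slamf1, which encodes CD150, differed between populations gated alike. CMP, MPP and GMP were all sorted as CD150- by antibody to the surface protein, which RNA does not measure. Slamf1 lay at 2.19 to 3.99 FPKM in CMP against 0.07 to 0.3 in MPP and 0 to 0.2 in GMP. Its log2 difference of CMP from GMP was 2.01 (limma adjusted p = 2.68e-07). In LT-HSC and ST-HSC Slamf1 lay between 4.79 and 17. In the leukaemias Kit lay between 0.33 and 5.94 FPKM and Fcgr3 between 132 and 230. Replicates 4 and 5 of both LT-HSC and ST-HSC stood apart before any comparison: their neutrophil calgranulin S100a8 lay between 2201 and 20265 FPKM, against 6.49 to 352 in the other 6 stem cell samples. In ST-HSC these replicates also raised the group mean of genes from other lists, such as Hbb-b1 (erythroid) and Itgam (monocyte and macrophage). Stefin levels and correlations over normal samples are given with and without these 4 libraries. So are list counts for STHSC:MA9 against ST-HSC and for CMP against GMP. For MPP:MA9, CMP:MA9 and GMP:MA9 the fit shares its spread with ST-HSC replicates 4 and 5 and was not repeated without them. In bulk samples a lower level can come from fewer cells of a type or from less RNA in each cell, and these cannot be told apart.

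The 6 genes span 298.582 kb, from the left end of Stfa2l1 to the right end of Stfa3 (NCBIM37 coordinates, GENCODE M1 annotation). From left to right they are Stfa2l1 (chr16:36156897-36162034), Gm5483 (chr16:36184298-36188197) and Stfa1 (chr16:36277213-36285457), all 3 on the plus strand. BC100530 (chr16:36359468-36367834), Stfa2 (chr16:36404037-36421006) and Stfa3 (chr16:36450623-36455478) follow, all 3 on the minus strand. Each gene has 3 exons, and the coding length is 309 bases in Stfa2l1, Stfa2 and Stfa3 and 291 bases in Gm5483, Stfa1 and BC100530, which gives 103 and 97 codons before the stop.

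**Figure D1:**
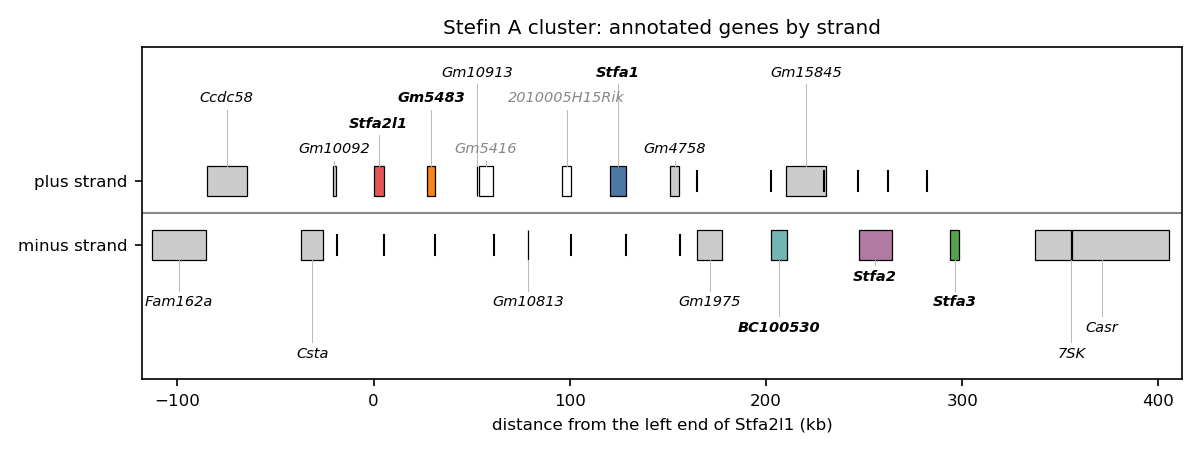
The annotated genes of the cluster and 100 kb to each side, drawn to scale along distance from the left end of Stfa2l1 (kb), with the plus strand above and the minus strand below. Coloured boxes are the 6 stefin genes, grey boxes other genes of the table, white boxes genes that are not used here, and short ticks the 13 U6 small RNA copies.

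The arrangement also repeats a small RNA gene. In 5 of the 6 genes a U6 copy on the opposite strand lay 59 to 66 bases beyond the 3′ end, and for Stfa3 the next copy was 11790 bases away. The window of the map held 13 U6 copies among 32 annotated genes.

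The sequence that bears most on how the values are to be read is exon 2, which is coding throughout, is 102 bases long in every member and encodes the first inhibitory loop. It is shown for all members because it is where near-identical copies can be seen at a glance. It lies at chr16:36160032-36160133 in Stfa2l1, chr16:36186450-36186551 in Gm5483 and chr16:36280552-36280653 in Stfa1 (plus strand). It lies at chr16:36364298-36364399 in BC100530, chr16:36405216-36405317 in Stfa2 and chr16:36452237-36452338 in Stfa3 (minus strand, all NCBIM37). Capitals mark the 5 codons of the loop motif.
Stfa2l1: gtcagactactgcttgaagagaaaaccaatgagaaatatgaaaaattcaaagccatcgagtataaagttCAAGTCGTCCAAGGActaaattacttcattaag
Gm5483: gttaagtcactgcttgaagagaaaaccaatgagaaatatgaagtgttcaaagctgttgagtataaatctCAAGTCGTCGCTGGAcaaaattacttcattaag
Stfa1: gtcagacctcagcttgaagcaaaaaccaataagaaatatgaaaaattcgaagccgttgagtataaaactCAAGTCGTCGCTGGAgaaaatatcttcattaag
BC100530: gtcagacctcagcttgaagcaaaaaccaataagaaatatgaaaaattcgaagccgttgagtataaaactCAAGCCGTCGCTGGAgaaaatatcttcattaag
Stfa2: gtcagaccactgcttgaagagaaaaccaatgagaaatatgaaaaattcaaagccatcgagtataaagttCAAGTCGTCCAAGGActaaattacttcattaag
Stfa3: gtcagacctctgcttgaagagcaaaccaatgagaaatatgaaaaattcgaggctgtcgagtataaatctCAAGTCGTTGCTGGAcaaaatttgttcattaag

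Within this exon Stfa2l1 and Stfa2 differed at 1 position of 102, T8C, and Stfa1 and BC100530 at 1 position, T74C, where positions count from 1 at the 5′ end of the exon and the letter of the gene named first comes first. The T74C position lies in the loop motif. Over the whole coding sequence the pair Stfa2l1 and Stfa2 was 98.1% identical and the pair Stfa1 and BC100530 97.9%, while the other pairs were 73.1 to 81.9% identical. Of all stretches of 31 bases in the transcripts, 62.8% in Stfa1, 50.3% in Stfa2l1, 45.4% in Gm5483, 44.9% in BC100530 and 34.5% in Stfa2 also occurred in some other annotated gene, and in Stfa3 it was 0%. Reads from the shared stretches are divided between copies by an estimate, so the split within the pairs Stfa2l1 with Stfa2 and Stfa1 with BC100530 is uncertain, and values are also given for the pairs and for the sum of all 6. In Gm5483 only 4.01% of the stretches occurred in another member, so most of its shared ones lie in genes outside the 6. The sum does not remove that uncertainty. Stfa3 is the member whose value does not rest on such a division.

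Promoters were matched for 5 of the 6 genes in RefSeq (GRCm38.p6), Gm5483 under its newer symbol Cstdc4, and BC100530 was not matched. They are shown because the members varied together from leukaemia to leukaemia. The 100 bases before the start lie at chr16:36156711-36156810, chr16:36184112-36184211 and chr16:36277048-36277147 on the plus strand for Stfa2l1, Gm5483 and Stfa1. For Stfa2 and Stfa3 they lie at chr16:36408364-36408463 and chr16:36455393-36455492 on the minus strand. Capitals mark a TTTAAA stretch and a GAGGAGGAG stretch.
Stfa2l1: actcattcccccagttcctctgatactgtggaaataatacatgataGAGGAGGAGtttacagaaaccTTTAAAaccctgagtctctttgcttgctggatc
Gm5483: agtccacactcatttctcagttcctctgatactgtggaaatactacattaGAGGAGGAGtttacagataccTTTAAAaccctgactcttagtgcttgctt
Stfa1: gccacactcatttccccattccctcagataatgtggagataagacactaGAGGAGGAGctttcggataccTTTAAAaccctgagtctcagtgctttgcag
Stfa2: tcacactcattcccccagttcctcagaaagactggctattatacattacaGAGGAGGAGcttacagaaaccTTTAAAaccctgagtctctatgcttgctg
Stfa3: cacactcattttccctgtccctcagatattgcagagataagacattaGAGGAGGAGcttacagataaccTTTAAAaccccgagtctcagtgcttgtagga

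The TTTAAA stretch began 29 to 33 bases and the GAGGAGGAG stretch 50 to 54 bases before the start in all 5. These stretches were picked after the sequences had been read, so their counts only describe them. On either strand of the 300 bases around the start (250 before and 50 after), TTTAAA occurred in 13.2% and GAGGAGGAG in 3.37% of 32851 promoters. Letters of known myeloid factors were searched in the same way. TGTGGT, a core read by RUNX factors, was in 5 of 5 stefin promoters and in 16.8% of all. GAGGAAG, a form read by PU.1, was in 2 (13.6% of all), TTGCNNAA, a form read by C/EBP factors, in 1 (10.8%), AGATAA, read by GATA factors, in 2 (11.2%), and TGATTNAT, read by HOX and MEIS factors, in 0 (3.22%). The 5 stefin promoters resemble each other in sequence, so they are not independent and these counts are not read as enrichment. No binding was measured here.

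In the leukaemias the stefin A genes ranged from some of the most abundant transcripts to moderate ones. Their summed level was 14219, 10359 and 22308 FPKM in the 3 STHSC:MA9 leukaemias and 1214, 2956, 41738 and 5789 in the 4 CMP:MA9 leukaemias. In MPP:MA9 it ran from 749 to 29166 with a median of 8004, and in GMP:MA9 from 806 to 19005 with a median of 4910. The sum made up 0.0944 to 5.04% of all FPKM of a leukaemia, and never more than 0.0257% in a normal sample. The highest share was that of CMP:MA9 replicate 3. Stfa1 was the gene of rank 6 in that leukaemia and in GMP:MA9 replicates 1 and 4, its best rank in any sample. Its rank was 100 or better in 14 of 19 leukaemias, with a median of 27, and 311 in MPP:MA9 replicate 4. Stfa3 was within the first 100 in 6 leukaemias, with a median rank of 207, and the lowest standing of any member was rank 1532, of Stfa2.

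In the normal cells the sum was low in most samples. It was 18.6 to 33.7 FPKM in the 5 GMP samples, with a median of 25.6, and 9.68, 6.82, 7.32 and 15.5 in MEP. It was 1.88 to 3.3 in CMP, with a median of 2.77, and 1.94 to 25.7 in MPP, where 5 of the 6 samples were at or below 4.26. LT-HSC replicates 1 to 3 held 3.75, 5.45 and 11.1 FPKM and replicates 4 and 5 held 245 and 104, while ST-HSC held 14.5, 4.28 and 6 in replicates 1 to 3 and 137 and 28.4 in replicates 4 and 5. GMP lay above MEP, MEP above CMP, and CMP below GMP with no overlap of samples, whereas MPP and the stem cell groups overlapped their neighbours in the order.

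Group means followed with wide errors. They were 15628 ± 6098 FPKM in STHSC:MA9 (SD, n = 3), 12924 ± 19301 in CMP:MA9 (n = 4), 10620 ± 9945 in MPP:MA9 (n = 6) and 8007 ± 7684 in GMP:MA9 (n = 6). Neighbours in this order overlapped in every case. Without replicate 3 the mean of CMP:MA9 was 3320, below the other 3 origins, and without replicate 2 that of MPP:MA9 was 6910. The normal means were 74 ± 105 in LT-HSC, 38 ± 56 in ST-HSC, 25.7 ± 5.37 in GMP, 9.83 ± 3.98 in MEP, 6.67 ± 9.34 in MPP and 2.66 ± 0.516 in CMP. Over replicates 1 to 3 alone the means were 6.77 in LT-HSC and 8.25 in ST-HSC, below that of GMP, and without replicate 5 that of MPP was 2.87.

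**Figure D2:**
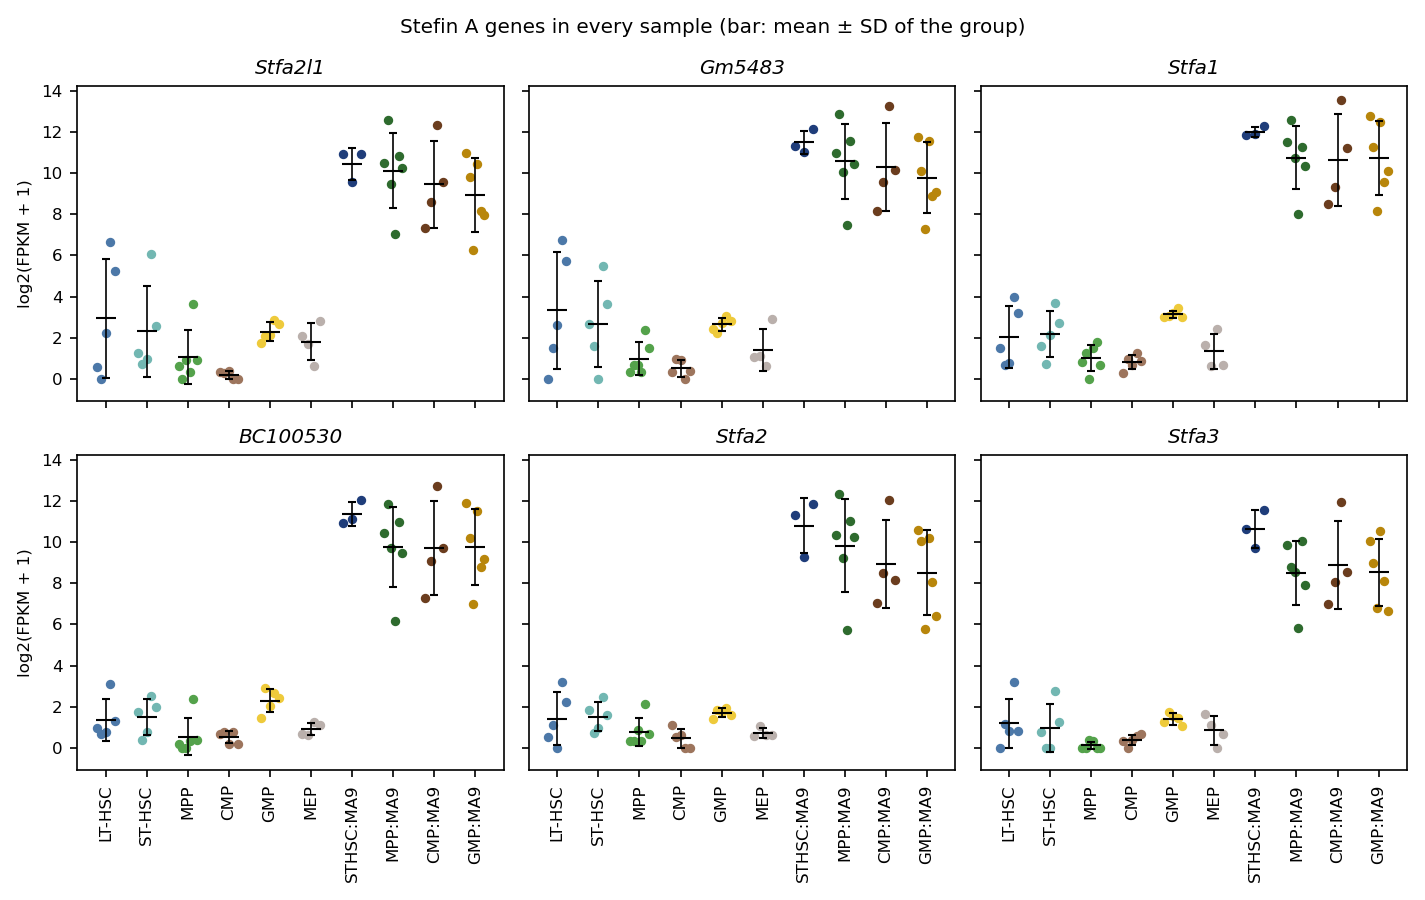
Level of each stefin A gene in every sample, as log2(FPKM + 1), by group. Points are samples and bars the mean ± SD of the group. All leukaemia points lie above all normal points except in Stfa2l1, where LT-HSC replicate 4 lies above the lowest leukaemia.

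Set against its own normal cell, the mean of log2(summed FPKM + 1) was 9.63 higher in STHSC:MA9, 10.31 in MPP:MA9, 10.55 in CMP:MA9 and 7.50 in GMP:MA9. Against ST-HSC replicates 1 to 3 alone the first of these was 10.81. GMP:MA9 had the smallest difference, and GMP the highest mean on this scale among the 4 starting populations, 4.71 against 4.23 in ST-HSC, 2.39 in MPP and 1.86 in CMP. Each of the 6 genes lay higher in every leukaemia than in every sample of its normal cell, in all 4 origins. Of all genes tested, 19.6% did so for STHSC:MA9, 19.3% for MPP:MA9, 19.2% for CMP:MA9 and 20.1% for GMP:MA9. Over all origins together, 5 of the 6 genes were higher in each of the 19 leukaemias than in each of the 30 normal samples (2.88% of all genes), and Stfa2l1 overlapped, with 74.7 FPKM in its lowest leukaemia and 98.1 in LT-HSC replicate 4. The members were chosen for this contrast, so nothing is read from these counts.

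Stfa1 was the leading member. It was the highest of the 6 in 15 of 19 leukaemias and ran from 262 FPKM in MPP:MA9 replicate 4 to 11896 in CMP:MA9 replicate 3, with a median of 2466. The 3 STHSC:MA9 leukaemias held 3662, 3797 and 4988, the narrowest range of any origin. The 4 CMP:MA9 leukaemias held 357, 649, 11896 and 2363, while MPP:MA9 ran from 262 to 6116 and GMP:MA9 from 286 to 7065. All origins overlapped. In normal cells it was highest in LT-HSC replicate 4 at 15 FPKM, lay at 7.02 to 9.88 in GMP and at 0.24 to 1.38 in CMP, and was listed at 0 in 1 of 30 samples. Its near copy BC100530 ran from 71 to 6809 FPKM in the leukaemias (median 1187) and from 0 to 7.6 in the normal samples. It was at 1967, 2246 and 4258 in STHSC:MA9 and at 154, 539, 6809 and 853 in CMP:MA9. It was below Stfa1 in each of the 19 leukaemias, and Stfa1 made up 53.9 to 78.7% of the pair.

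Gm5483 led in the other 4 leukaemias: MPP:MA9 replicates 2, 5 and 6 and CMP:MA9 replicate 2. It ran from 156 to 9786 FPKM over the leukaemias, with a median of 1407. STHSC:MA9 held 2585, 2112 and 4492 and CMP:MA9 286, 759, 9786 and 1141. The origins overlapped here as well. In the 4 stem cell libraries that stood apart it was at 108, 52.8, 44.3 and 11.4 FPKM, and led in 3 of them, while Stfa1 there was at 15, 8.24, 11.9 and 5.57. Its levels in GMP were 4.44, 3.7, 5.55, 7.4 and 5.99.

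Stfa2l1 and Stfa2 are the other near-identical pair. Stfa2l1 ran from 74.7 to 6087 FPKM (median 887) and Stfa2 from 53 to 5216 (median 1051). STHSC:MA9 held 1922, 754 and 1928 of Stfa2l1 and 2513, 619 and 3664 of Stfa2, and CMP:MA9 158, 389, 5094 and 763 of Stfa2l1 and 132, 356, 4201 and 290 of Stfa2. Neither gene of the pair was the higher in every leukaemia, and Stfa2 made up 25.6 to 65.5% of the pair. In the stem cell libraries they parted: LT-HSC replicates 4 and 5 held 98.1 and 37.5 FPKM of Stfa2l1 but 8.28 and 3.65 of Stfa2. Together the pair ran from 129 to 11304 FPKM in the leukaemias, and the pair Stfa1 and BC100530 from 333 to 18706.

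Stfa3, the member with no shared 31-base stretch, was the least abundant by its median, 439 FPKM, and ran from 55.4 to 3950. STHSC:MA9 held 1570, 831 and 2979, and CMP:MA9 128, 264, 3950 and 379. It was listed at 0 in 9 of 30 normal samples, more than any other member, and reached 8.1 in LT-HSC replicate 4. In MPP:MA9 its lowest value was 55.4 and its highest 1075, and in GMP:MA9 99.7 and 1512.

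The make-up of the sum was much steadier than its size. The median share over the leukaemias was 30.6% for Stfa1, 20.2% for Gm5483, 15.9% for BC100530, 13% for Stfa2l1, 10.8% for Stfa2 and 8.59% for Stfa3. Stfa1 ranged from 19.8 to 41.4% and Gm5483 from 15.1 to 26.1%. Stfa2 ranged most in proportion apart from Stfa3, from 3.24 to 20.1%, and Stfa3 made up 1.5% in MPP:MA9 replicate 2, where it held 439 FPKM of 29166. By origin, the share of Stfa2l1 was 13.6 to 20.9% in MPP:MA9 and 8.8 to 12.3% in GMP:MA9, which did not overlap. The split between Stfa2l1 and Stfa2 is uncertain, however. The share of that pair was 24.5 to 40% in MPP:MA9 and 12.7 to 27% in GMP:MA9, which overlapped. The pair Stfa1 and BC100530 made up 48.2 to 63.2% in GMP:MA9 and 32.9 to 48.1% in MPP:MA9. These shares were compared after they had been seen and were not tested.

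**Figure D3:**
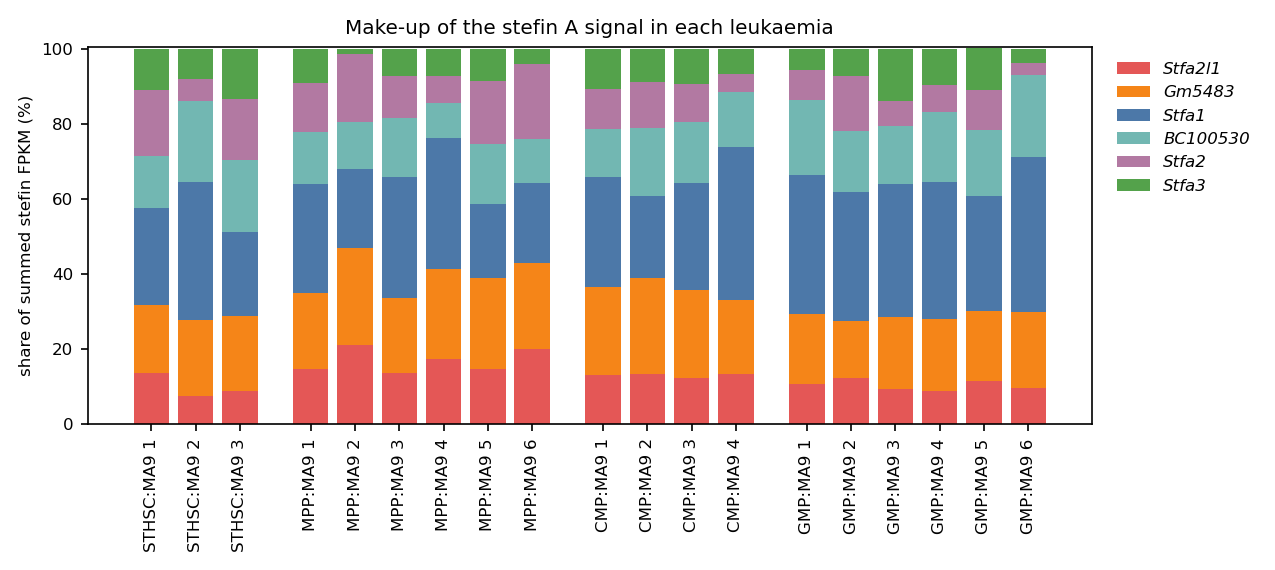
Share of each gene in the summed stefin A FPKM of each leukaemia (%), stacked to 100% within rounding. Stfa1 takes the widest band in 15 of 19 leukaemias, and the Stfa2l1 band is wider in all 6 MPP:MA9 leukaemias than in any GMP:MA9 leukaemia. The split between Stfa2l1 and its near copy Stfa2 is uncertain, and the share of that pair overlaps between these origins.

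Whether the level depended on the cell that was transformed was tested between the 4 origins with limma on log2(FPKM + 1), with p-values adjusted by the Benjamini-Hochberg method over 12128 genes, and a call took an adjusted p under 0.05 together with a log2 difference over 1. No stefin gene was called in any of the 6 pairs of origins, and at an unadjusted p below 0.05 the count was also 0 of 6 in each. The share of all genes called was 2.88% for STHSC:MA9 against MPP:MA9, 0.363% against CMP:MA9 and 0.536% against GMP:MA9. It was 0.115% for MPP:MA9 against CMP:MA9, 2.23% for MPP:MA9 against GMP:MA9 and 0.206% for CMP:MA9 against GMP:MA9. The pairs share groups and are not independent of each other.

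STHSC:MA9 had the higher mean in all 6 genes against each other origin, by 0.35 to 2.29 on the log2 scale, but the intervals were wide. The 13 mature neutrophil genes also had higher medians there, by 1.67 against MPP:MA9, 2.44 against CMP:MA9 and 1.97 against GMP:MA9, beside stefin medians of 1.12, 1.52 and 1.67, and none of the 13 was called. Their part in the stefin values was not tested. The nearest to a call was Stfa3, where STHSC:MA9 exceeded MPP:MA9 by 2.12 (SE 1.05, 95% interval -0.08 to 4.32, limma adjusted p = 0.196). For Stfa2, STHSC:MA9 exceeded GMP:MA9 by 2.29 (SE 1.32, interval -0.47 to 5.05, limma adjusted p = 0.351). For Stfa1, MPP:MA9 and GMP:MA9 differed by 0.01 (SE 0.88, interval -1.84 to 1.86, limma adjusted p = 0.998), and a difference within these bounds was not detectable with these samples.

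The width of those intervals comes from differences between leukaemias of the same origin. The residual SD of the stefin genes ran from 1.64 (Stfa3) to 2.07 (Stfa2) on the log2 scale, against a median of 0.33 over all genes tested. Only 18 of 12128 genes had a larger residual SD than Stfa2 and 68 a larger one than Stfa3. Among the 741 genes whose leukaemia mean reached 100 FPKM, 1 to 13 were more variable than a stefin gene. The summed level differed between MPP:MA9 replicates 4 and 2 from 749 to 29166 FPKM and between CMP:MA9 replicates 1 and 3 from 1214 to 41738.

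Among the normal populations the GMP, the progenitor that gives rise to neutrophils and monocytes, carried more stefin A than CMP, from which it arises. In limma's test over 12367 genes, 3 of the 6 genes were lower in CMP than in GMP, where 3.31% of all genes were called lower and 11.2% were called in either direction. Log2 differences of CMP against GMP were -2.32 for Stfa1 (SE 0.53, adjusted p = 9.50e-04), -1.79 for BC100530 (SE 0.45, adjusted p = 0.00231) and -1.24 for Stfa2 (SE 0.44, adjusted p = 0.0262). The other 3 missed the threshold, with log2 differences of -2.14 for Gm5483 (adjusted p = 0.0659), -2.10 for Stfa2l1 (0.0902) and -1.02 for Stfa3 (0.078). In all 6 genes every CMP sample lay below every GMP sample (9.78% of all genes). Relative to the median of all genes, which was 0.20 higher in CMP, the differences were larger.

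Markers of several cell types moved with this contrast. The neutrophil list had a median log2 difference of -3.99 in CMP against GMP, beside -1.95 for the stefin genes. Of its 13 genes 5 were called lower: S100a8 (by 6.24), S100a9, Chi3l3, Camp and Ngp. Without the 4 stem cell libraries that stood apart 10 were. All 5 primary granule genes were lower in CMP (median -2.65), while 5 of 7 erythroid and 4 of 4 megakaryocyte genes were higher, as was Slamf1. Their part in the stefin difference was not tested.

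The values behind this contrast are small but clear of each other. Stfa1 stood at 7.02, 7.24, 8.09, 9.88 and 7.11 FPKM in GMP and at 0.24, 0.94, 0.59, 1.38 and 0.86 in CMP. BC100530 stood at 1.76, 6.47, 3.09, 5.42 and 4.47 in GMP and at 0.6, 0.7, 0.15, 0.69 and 0.14 in CMP. Values this small recurred in identical form, as in MPP replicate 4, where Stfa2l1, Gm5483 and BC100530 were all at 0.27, and the lowest values above 0 were 0.13 to 0.25 FPKM over the 6 genes. The spread in this test includes the stem cell libraries that stood apart. Without those 4 libraries 5 genes were called, with Stfa3 no longer above the filter on low values, and all 6 were called when CMP and GMP were fitted alone. The CMP means were 0.158 to 0.802 FPKM, so in the fit of both groups alone all 6 passed that filter only through GMP. BC100530 and Stfa2 did so as well in the fit without the 4 libraries. These added calls are therefore not read as support. With a correction for GC content and gene length, Stfa1 and BC100530 kept the call, and Stfa2 did not (adjusted p = 0.134). Stfa2 also missed the threshold without CMP replicate 4 or 5 or GMP replicate 2 or 4, with limma adjusted p from 0.0519 to 0.0641.

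Against MEP, the erythroid and platelet progenitor, 2 genes were higher in GMP, where 11.2% of all genes were called higher and 20.5% in either direction. Stfa1 was higher by 1.80 (SE 0.56, limma adjusted p = 0.0092) and BC100530 by 1.39 (SE 0.47, limma adjusted p = 0.0174). Those 2 and Stfa2 had no overlap between GMP and MEP samples (22.6% of all genes), and BC100530 lost its call with the same correction (limma adjusted p = 0.0505). This comparison shares its GMP samples with the one before. By limma no stefin gene was called for LT-HSC against ST-HSC (2.26% of all genes called), ST-HSC against MPP (3.44%), MPP against CMP (4.32%) or CMP against MEP (11.8%). At an unadjusted p below 0.05 the counts were 0, 2, 0 and 0, the 2 being Stfa1 and BC100530, which were higher in ST-HSC. These unadjusted counts include the 4 stem cell libraries that stood apart.

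The members rose and fell together from leukaemia to leukaemia. Over the 19 leukaemias Pearson's r between pairs of members ran from 0.822 to 0.98 (median of 15 pairs 0.927), and with the means of the origins removed from 0.879 to 0.991. Over the 30 normal samples it ran from 0.667 to 0.927 (median 0.735), and with the group means removed from 0.525 to 0.914 (median 0.682). These normal values rested in part on the 4 stem cell libraries that stood apart. Without them r ran from 0.436 to 0.814 over 26 samples (median 0.589), and with the group means removed from -0.278 to 0.687 (median 0.195). Stretches shared between copies and the common library of each sample enter these values. They are a description and were not tested.

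Of all genes outside the cluster, those most like the sum over the 19 leukaemias were Mmp25 (r = 0.932), a matrix metalloprotease of neutrophils, ENSMUSG00000094733 (0.919), Ngp (0.895), a cystatin-like protein of neutrophil granules, and Mmp9 (0.889), the gelatinase of neutrophil granules. Sept5, Lpcat2, 4930438A08Rik, AA467197, Marcksl1 and Igf1r completed the 10, down to r = 0.872. Over the 30 normal samples the list was led by Chi3l3 (0.908), a chitinase-like protein of neutrophils and macrophages, and held Cd177, a surface protein of neutrophils (0.89), and Fpr2, a formyl peptide receptor (0.881), with Pilra, Pilrb2, Itgb2l, Mapk13, 4930438A08Rik, Megf9 and 1810033B17Rik between them. The lists shared 1 gene of 10, 4930438A08Rik. Of the 13 genes listed as mature neutrophil, 2 were among the 10 in the leukaemias and 1 in the normal samples. Without the 4 stem cell libraries that stood apart 5 of the 10 normal genes remained, Chi3l3 still first (0.803), while Cd177 stood at 0.711 and Fpr2 at 0.681.

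The neutrophil list as a whole had a median r with the sum of 0.732 in the leukaemias, from 0.136 to 0.895, where the median of all genes was 0.0162. Ltf, the lactoferrin of secondary granules, had r = 0.685 there and Chi3l3 0.577, with 261 and 592 genes above them. Over the 30 normal samples the median of the list was 0.846, and over the 26 it was 0.682, from -0.491 to 0.803. Primary granule genes differed among themselves in the leukaemias, with r = 0.139 for Mpo and 0.621 for Elane, the neutrophil elastase. The monocyte receptor Csf1r had r = -0.409 in the leukaemias and 0.257 over the 30 normal samples (0.773 with the group means removed), and 0.0892 over the 26 (0.0783).

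The size of the sum was also set against that of neutrophil genes. The list of 13 mature neutrophil genes was higher in 8 members for STHSC:MA9 against ST-HSC, 13 for MPP:MA9, 10 for CMP:MA9 and 4 for GMP:MA9. The share of all genes called higher was 12.3, 13.5, 13 and 13.5% in the same order. Median log2 differences over the list were 4.25, 5.79, 4.51 and 0.43, beside -0.04, -0.09, -0.16 and 0.00 over all genes. Without ST-HSC replicates 4 and 5, all 13 were called in STHSC:MA9, while 5 were called without ST-HSC replicate 1 and 4 without ST-HSC replicate 2 or STHSC:MA9 replicate 3.

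The ratio of the stefin sum to S100a8 is given as a description, since its numerator holds the genes chosen for being high in leukaemia and a higher ratio there follows in part from that choice. In GMP the stefin sum was 0.00439 to 0.0333 of the S100a8 level, and in the 4 stem cell libraries that stood apart 0.0101 to 0.0129. In the leukaemias it was 0.486 to 17.7, with a median of 3.5, and 18 of 19 leukaemias lay above the highest normal value of 1.25. S100a8 itself was at 770 to 4245 FPKM in GMP and 392 to 5422 in GMP:MA9, a log2 difference of -0.08 (SE 1.20, limma adjusted p = 0.967), while the 6 stefin genes were higher there by 6.63 to 7.59. Other genes of the neutrophil list did rise in GMP:MA9, where 13.5% of all genes were called higher. Chi3l3 rose by 3.04, Mmp9 by 2.91, Padi4 by 2.72 and Mmp8 by 2.20, and 9 of the 13 were not called. The Mmp8 call was lost in 8 alternative settings. Against the summed neutrophil list the ratio was 0.00159 to 0.0144 in GMP and 0.124 to 1.25 in GMP:MA9. The part that mature neutrophils within the sorted cells played in either level was not tested.

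**Figure D4:**
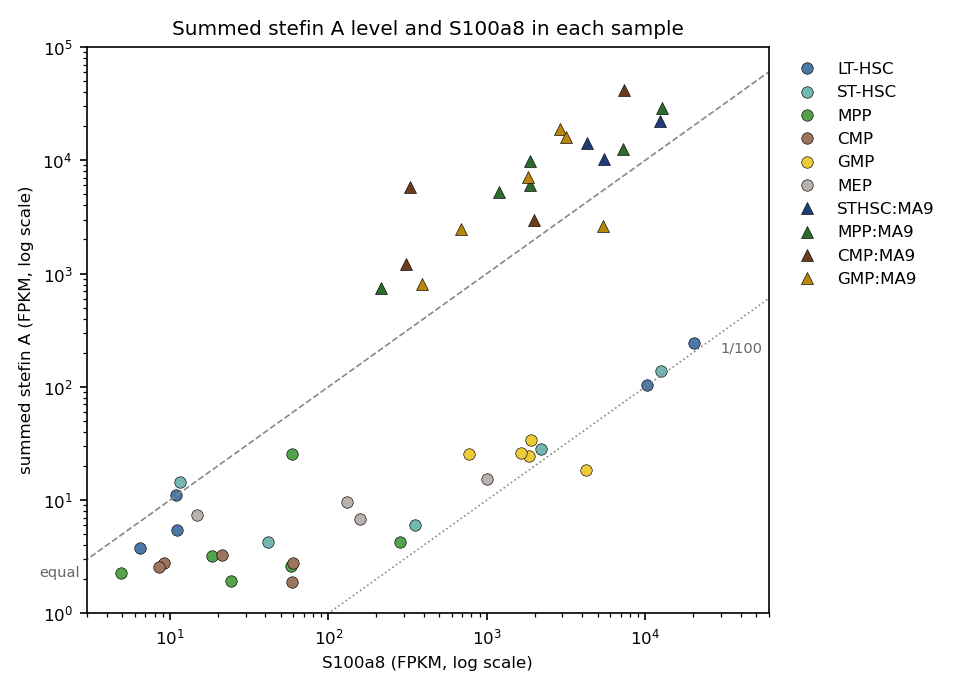
Summed stefin A level against S100a8 in each sample, both in FPKM on log axes. Circles are normal samples and triangles leukaemias. The dashed line marks equal levels and the dotted line a level of 1/100. The 4 stem cell libraries that stood apart lie along the dotted line, and 18 of 19 leukaemias lie above the dashed line.

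The proteases that stefins inhibit were also examined in the leukaemias. Of 10 papain-type cathepsins 9 passed the filter on low values, and Ctsk did not. In STHSC:MA9 6 were higher and 1 lower than in ST-HSC, in MPP:MA9 6 were higher and 2 lower, in CMP:MA9 6 were higher, and in GMP:MA9 4 were higher. The share of all genes called lower was 11.9, 13.6, 14.8 and 8.87% in the same order of origins, beside the shares called higher given for the neutrophil list. Median log2 differences of the 9 were 1.16, 2.17, 1.86 and 0.79. The 4 that rose in all origins were Ctss, Ctsh, Ctsb and Ctsl, the classic targets of stefin A.

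Ctss, the cathepsin that trims the invariant chain in antigen-presenting cells, lay at 34 to 52.9 FPKM in GMP and 281 to 445 in GMP:MA9. It rose by 3.26, 3.42, 3.99 and 3.18 on the log2 scale in leukaemias of ST-HSC, MPP, CMP and GMP origin (largest limma adjusted p = 1.02e-10). Ctsh, an aminopeptidase, rose by 3.01, 4.41, 3.27 and 1.49, and Ctsb by 1.86, 2.57, 2.33 and 1.11. Ctsl rose by 1.16, 1.70, 1.86 and 1.24, although without STHSC:MA9 replicate 1 its difference in that origin was 0.75, under the fold asked for a call. Ctsz and Ctsc, which activates granule serine proteases, rose in the first 3 origins, Ctsz by 2.11, 2.17 and 1.40 and Ctsc by 1.13, 2.18 and 1.95. The Ctsc difference in STHSC:MA9 was 0.97 without ST-HSC replicate 3 and 0.86 without STHSC:MA9 replicate 1, both under that fold. In GMP:MA9 Ctsz differed by 0.16 (limma adjusted p = 0.53), and Ctsc by 0.79 (limma adjusted p = 0.00471), under the fold asked for a call.

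A few proteases went the other way. Ctsw, the cathepsin of cytotoxic lymphocytes, fell by 1.78 in STHSC:MA9 and by 1.80 in MPP:MA9, and Ctsf fell by 1.21 in MPP:MA9. The count of cathepsins called lower in STHSC:MA9 was 3 without ST-HSC replicate 4 and 2 without any of the leukaemia replicates. Without ST-HSC replicates 4 and 5 the same 6 cathepsins were higher in STHSC:MA9, by 3.81 (Ctss), 3.64 (Ctsh), 2.37 (Ctsz), 2.15 (Ctsb), 1.52 (Ctsc) and 1.34 (Ctsl), and Ctsw, Ctso and Ctsf were lower. Over the 19 leukaemias Ctss had r = -0.218 with the stefin sum. Over the 30 normal samples it had 0.46 (0.833 with the group means removed), and over the 26 without the libraries that stood apart 0.0132 (0.165).

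**Figure D5:**
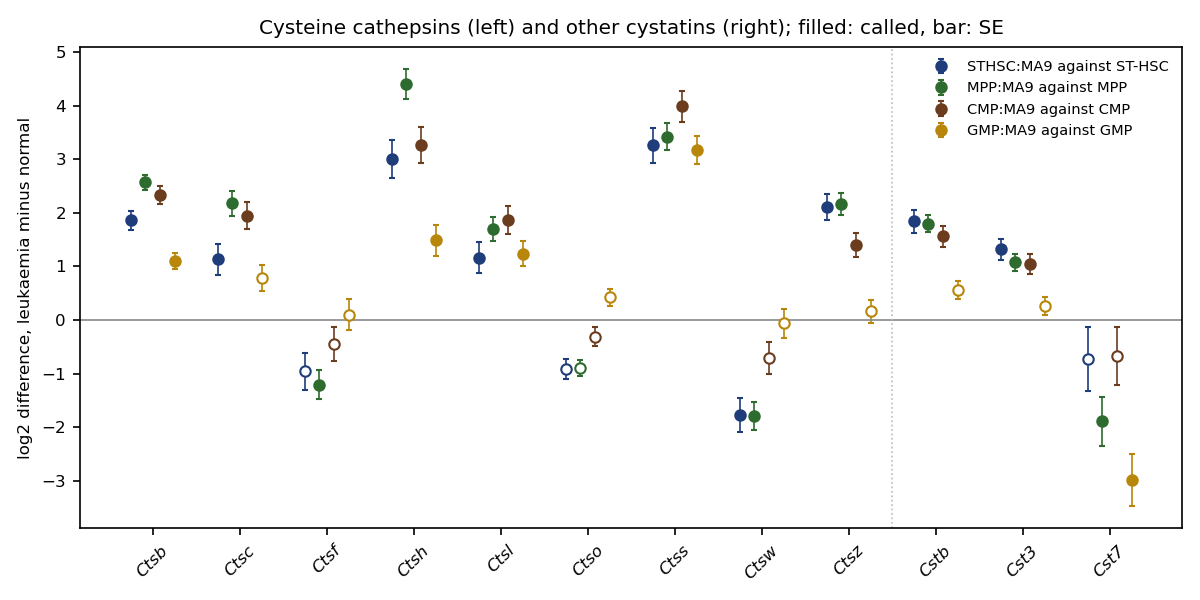
Log2 difference of each cathepsin (left) and of other cystatins (right) between each leukaemia and its normal cell. Points are limma estimates on log2(FPKM + 1), bars their SE, and filled points passed both thresholds. Ctsb, Ctsh, Ctsl and Ctss are filled above 0 in all 4 origins, and Cst7 is below 0 in all 4.

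Cystatins encoded elsewhere were measured as well. Of 7 listed, 3 passed the filter. Cstb, which encodes stefin B, the other intracellular stefin, rose by 1.84 in STHSC:MA9, 1.80 in MPP:MA9 and 1.56 in CMP:MA9, and differed by 0.56 in GMP:MA9 (limma adjusted p = 0.00537). Cst3, the secreted cystatin C, rose by 1.32, 1.08 and 1.04 in the first 3, with 0.97 without MPP replicate 5 and 0.98 without CMP:MA9 replicate 2, and differed by 0.26 in GMP:MA9 (limma adjusted p = 0.192). Without ST-HSC replicates 4 and 5 the same cystatins were called higher in STHSC:MA9, Cstb by 1.90. Cst7, the cystatin F of immune cell lysosomes, fell by 1.89 in MPP:MA9 and by 2.99 in GMP:MA9. In level, Cstb lay between 73.6 and 180 FPKM over the leukaemias, below the stefin A sum in each of the 19.

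Neighbours of the cluster were mixed. Among the genes that lie between members, Gm1975 was above 0 in 1 of 30 normal samples and reached 26.9 FPKM in the leukaemias. Its log2 difference from the normal cell was 2.70 in STHSC:MA9, 2.77 in MPP:MA9, 2.57 in GMP:MA9 and 1.33 in CMP:MA9. Gm15845 reached 20.3 FPKM, with differences of 2.00 to 2.41 over the 4 origins. The mean of either gene was at most 0.102 FPKM in any normal group. They therefore passed the filter on low values only through the leukaemias, so these differences are a description without a test. Both share 31-base stretches with Stfa1 and BC100530, and neither exceeded 0.31% of the stefin sum in any leukaemia, so reads placed from the abundant copies cannot be told apart from their own. On the left flank Ccdc58 fell by 1.16 in MPP:MA9, 1.02 in CMP:MA9 and 1.48 in GMP:MA9, and Fam162a fell by 1.12, 1.11 and 1.25. In STHSC:MA9 they differed by -0.24 (limma adjusted p = 0.394) and -0.17 (limma adjusted p = 0.743). Csta, the next stefin-like gene on that side, was above 0 in 19 of 19 leukaemias and in 3 of 30 normal samples, at no more than 0.73 FPKM, and had r = 0.818 with the stefin sum over the leukaemias. It too shares 31-base stretches with Stfa1, BC100530 and Gm5483.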

How the data were processed

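Gene expression was taken from the deposited table of FPKM (fragments per kilobase of transcript and per library size), which the authors estimated from amplified cDNA libraries. The submitters' processing notes name RSEM and the genome build mm9, and the version of RSEM is not given in the sources used here. Of 68 columns 49 matched a sample by name and 19 were not used. Groups came from the sample labels. Read counts were not analysed here, so the count test named in the study's methods was not run, and those methods give only a minimum depth common to all samples, not the depth of each. No pair of samples held identical values.

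Each fit took the genes that averaged 1 FPKM or more in its samples, on log2(FPKM + 1), and used limma 3.58.1 (R 4.3.3, two-sided, eBayes with trended prior variance) and Benjamini-Hochberg adjustment. A call needed an adjusted p below 0.05 and a log2 difference above 1, and fold changes of genes near 0 are understated on this scale. Leukaemia origins, normal populations and leukaemias with their normal cells were fitted separately. The scripts were tested on simulated data. Gene models and exon sequences came from GENCODE M1 on NCBIM37 and promoters from RefSeq.

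The members and lists were chosen with earlier results of these data known. Genes are named by these rules: the stefin genes, their neighbours within 100 kb, lists of cathepsins, cystatins and cell markers, and the 10 genes with the highest Pearson's r with the summed level over the leukaemias and over the normal samples. Same-numbered LT-HSC and ST-HSC samples deviated together over all genes (r = 0.142 to 0.683 in 5 pairs). In every other comparison the lowest r was 0.048 or less. The sample labels give no pairing, and the main tests took all samples as unpaired. Alternatives were another pseudocount, no filter or fold threshold, median-ratio scaling, correction for GC content and length, Spearman's rho, a replicate block, fits of only the groups compared, and leaving out samples.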

Additional observations from a re-analysis of the deposited data

Results flagged for a closer look

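In 19 of 63 groups of 4 to 10 samples, counted over the 6 genes and their sum, the highest sample lay farther from the rest than Dixon's 95% limit allows. Chance gives about 1 in 20 groups (5%) only where values follow a normal distribution. The limit was applied to FPKM without logs, which are skewed towards high values, so that rate need not hold here. The genes also share samples and sequence, so the groups are not independent. No explanation was tested.

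CMP:MA9 replicate 3 was the extreme of its group in 5 genes and in the sum. It held 5094 FPKM of Stfa2l1, 9786 of Gm5483, 6809 of BC100530, 4201 of Stfa2 and 3950 of Stfa3, and 41738 in all, where the next CMP:MA9 leukaemia held 5789. MPP:MA9 replicate 2 was extreme in Stfa2l1 alone, at 6087 FPKM against 1812 in the next.

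Among the stem cell samples ST-HSC replicate 4 stood out in Stfa2l1 (65.2 FPKM), Gm5483 (44.3), Stfa3 (5.9) and the sum (137), and LT-HSC replicate 4 in BC100530 (7.6) and Stfa3 (8.1). S100a8 was at 12625 FPKM in the first and 20265 in the second. MPP replicate 5 stood out in Stfa2l1 (11.5 FPKM), BC100530 (4.13), Stfa2 (3.36) and the sum (25.7), and its S100a8 was at 59 FPKM, between the 4.93 and 283 found in the other MPP samples. MEP replicate 4 stood out in Gm5483 (6.58) and MEP replicate 2 in Stfa2 (1.1).

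Ctso, a papain-type cathepsin, was higher in every GMP:MA9 sample than in every GMP sample, which was so in 1 origin. In the other 3 origins every leukaemia was below every sample of its normal cell. The log2 differences were 0.42 in GMP:MA9, -0.91 in STHSC:MA9, -0.90 in MPP:MA9 and -0.31 in CMP:MA9. The difference between the origins was not tested.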

How the results depend on the processing

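Between leukaemia origins the count of stefin genes called was 0 in all pairs under all alternatives run, and no named gene with a call reversed its direction: 60 of 73 such calls were kept in every setting. Between normal populations 5 calls in all became 3 with the correction for GC content and length, 10 when only the groups compared were fitted and 8 without LT-HSC and ST-HSC replicates 4 and 5. For CMP against GMP, 3 calls became 5 with a pseudocount of 0.1, 6 in the fit of both groups alone and 5 without those 4 libraries. For GMP against MEP, 2 became 1 with that pseudocount and 1 with the GC and length correction. For CMP against MEP, 0 became 1 in the fit of both groups alone and 1 without the 4 libraries, and for ST-HSC against MPP 0 became 1 with a pseudocount of 0.1. All 6 genes had CMP means below 1 FPKM. In a fit of CMP with GMP or MEP alone, any that passed the filter did so only through the other group. Leaving out a sample at a time gave 2 to 3 calls for CMP against GMP and 0 to 1 for ST-HSC against MPP. The cause was not tested.

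With a replicate block the calls for CMP against GMP rose from 3 to 5. Same-numbered samples there correlated from 0.048 to 0.29 and no label gives a pairing, so the numbers are not taken as pairs. For LT-HSC against ST-HSC, where same-numbered samples deviated together, the block changed no call, nor in any other stefin comparison.

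Cathepsins called lower in STHSC:MA9 went from 1 to 2 (pseudocount of 0.1), 3 (no fold threshold), 3 without ST-HSC replicates 4 and 5, an alternative chosen after seeing the data, and 1 to 3 leaving out a sample. In CMP:MA9 0 became 1 with that pseudocount and 1 with no fold threshold. Neutrophil genes called higher in STHSC:MA9 went from 8 to 3 in the fit of both groups alone, 13 without ST-HSC replicates 4 and 5, and 4 to 12 leaving out a sample. Other cystatins called higher went from 2 to 1 to 2 leaving out a sample in MPP:MA9 and likewise 1 to 2 in CMP:MA9, and from 0 to 1 in GMP:MA9 with no fold threshold. Of the 10 genes most like the sum, 6 remained with a pseudocount of 0.1 and 4 by Spearman's rho over the normal samples, and 5 and 3 over all 49 samples. Over the normal samples 5 remained without the 4 stem cell libraries that stood apart, also chosen after seeing the data.

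The number of reads was not part of the values, so counting error at the low normal levels cannot be given.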

Other observations

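Lists of other cell types were measured in the same leukaemias and give the setting of the stefin levels, without a test against them. Of 9 monocyte and macrophage genes tested, 8 were higher in STHSC:MA9, 9 in MPP:MA9, 9 in CMP:MA9 and 7 in GMP:MA9 than in the normal cell, where 12.3, 13.5, 13 and 13.5% of all genes were called higher. In GMP:MA9 1 was lower, Ly6c2, by 1.06 (limma adjusted p = 0.0198). Csf1r, the receptor for macrophage colony-stimulating factor, rose by 3.12, 3.48, 2.19 and 1.53 on the log2 scale. Primary granule genes took another course: all 5 were lower in GMP:MA9, with a median of -4.03, while 1 was lower in each other origin and 2 were higher in STHSC:MA9. The known MLL fusion targets Hoxa9 and Meis1 were both higher in GMP:MA9, and in CMP:MA9 1 of the 2 was.

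Genes of other lineages were counted against 11.9, 13.6, 14.8 and 8.87% of all genes called lower. Of 7 erythroid genes, 7 were lower in STHSC:MA9, 3 in MPP:MA9, 7 in CMP:MA9 and 1 in GMP:MA9. Of 4 mast cell and basophil genes, 4, 4, 1 and 3 were lower in the same order. Of 4 megakaryocyte genes, 4, 3, 3 and 3 were lower, and 1 was higher in MPP:MA9 and in GMP:MA9. Of 6 lymphoid genes 3 passed the filter, and 3, 2 and 1 of them were lower in the first 3 origins and 1 higher in GMP:MA9. Of the 5 genes behind the normal gates, 4, 3, 3 and 2 were lower, and 1 was higher in all origins but GMP:MA9. Without ST-HSC replicates 4 and 5, 6 erythroid genes were lower in STHSC:MA9 in place of 7, 3 primary granule genes higher in place of 2 and 1 MLL fusion target lower in place of 0, while the other lists here kept their counts. Csf1r then rose by 3.76.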
